A study of Homo sapiens with 15 samples.

Results

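The genes described here are 49 human genes of the DNA damage response and of double-strand break repair, out of 19966 genes in the table. They were picked by name for what is known of them, with earlier results of these data known, and fall into 7 roles: damage kinases and checkpoint genes, chromatin mediators at breaks, end resection factors and helicases, the BRCA genes, the strand exchange genes, the Fanconi genes, and end joining. Their RNA was measured in 9 libraries of 293T cells, an established line from human embryonic kidney with the large T antigen of SV40. In 3 libraries the cells had been starved of serum for 12 h and carried a knockdown of the splicing factor SRSF1 by a short hairpin RNA, in 3 libraries wild-type 293T had been starved for 12 h, and in 3 libraries wild-type 293T had been kept in 10% serum. The labels name no library with a non-targeting hairpin, so the hairpin libraries differ from the starved ones by the vector as well as by its target. They do not say whether the 3 libraries of a group came from separate cultures, and the p-values below measure the spread between libraries, which may be technical. Starvation and knockdown were each measured at 1 time only, and 6 further samples of the series, with knockdown of SRPK1 or UPF1, are not analysed here.

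A double-strand break is first bound by the MRE11, RAD50 and NBN complex or by the Ku pair, and the ATM, ATR and DNA-PK kinases pass the signal on to checkpoint kinases and to chromatin around the break. Where the ends are cut back to single strands, BRCA2 helps to start homologous recombination, while uncut ends are joined directly and partly cut ends can be joined by the polymerase that POLQ encodes. Fanconi proteins act on strands that are crosslinked to each other. In dividing cells many recombination and Fanconi genes are transcribed with the replication genes, before and during S phase, and 293T is a line in which large T antigen binds and inactivates p53 and RB.

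The deposited values are whole reads scaled by a size factor for each library, called normalized counts below. In such bulk RNA, fewer cells of a kind and less RNA per cell cannot be told apart. The 8 libraries whose whole reads could be recovered held 11775367 to 15231651 reads, and 15166 to 15720 genes were above 0 in each of the 9. SRSF1 itself, the target of the hairpin, had 2390.1, 2456 and 2382 normalized counts in hairpin, 3344, 3189 and 3205 in starved and 2588, 2485 and 2472 in fed libraries. It was 1.35-fold lower in hairpin than in starved libraries (log2 fold change -0.42 ± 0.07 SE, limma adjusted p = 0.000997), and did not differ past the threshold from fed libraries (-0.06, limma adjusted p = 0.59). Of 8 genes known to mark 293T, 7 passed the filter on low values. In starved against fed libraries 4 of these 7 fell (57.1%, against 21.3% of all genes tested). In hairpin against starved libraries 5 of the 7 rose (71.4%, against 22.5% of all genes tested). The summed normalized counts of the 8 genes were 9277 to 11462 in hairpin, 5236 to 5977 in starved and 8016 to 9050 in fed libraries. Of 12 markers of other cell types, the T cell gene CD3E and the macrophage gene CD68 were at 0 in all 9 libraries, and the sum, carried mostly by COL1A1, was 528 to 625 in hairpin, 312 to 359 in starved and 572 to 583 in fed libraries. Within each group 1 library, hairpin replicate 2, starved replicate 2 and fed replicate 3, leaned towards GC-rich and short transcripts, with Spearman correlations over 11103 genes between its deviation from the other 2 libraries and GC content of 0.60, 0.63 and 0.42. In these 3 libraries the repair genes sat low against the other libraries of the group, with median deviations of -0.12, -0.23 and -0.09 on the log2 scale, and hairpin replicate 3 had 5.56% of its normalized counts in mitochondrial genes, against 3.52% and 3.75% in the other hairpin libraries. Over the genes that passed the filter, hairpin replicate 3 correlated at 0.976 and 0.9693 with hairpin replicates 1 and 2. Those 2 replicates correlated at 0.9937 with each other.

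To compare levels between genes, the normalized counts were divided by the gene length that the table gives and by the total of the mean library (FPKM). For some genes that length is far above the longest coding transcript, as for ATM (39184 against 13147 bases) and BRIP1 (19639 against 6048 bases). The FPKM of such genes are lower than they would be by transcript length, and the order and classes below hold only for the FPKM scale used here. On this scale the most abundant repair genes were the 3 genes of the DNA-PK complex, which binds unresected ends: the mean over 9 libraries was 284 FPKM for XRCC6 and 124 FPKM for XRCC5, the Ku pair, and 69.1 FPKM for PRKDC, the kinase. The resection nuclease EXO1 followed with 38.3 FPKM, and the strand exchange gene XRCC2 with 34.0 FPKM. In all, 2 genes lay at 100 FPKM or more, 20 between 10 and 100, 25 between 1 and 10, and 2 under 1. The last 2, RAD50 with a mean of 0.353 FPKM and FANCF with 0.197 FPKM, missed the filter of 1 FPKM in at least 3 libraries and were not tested, which left 47 of the 49. RAD50 shares 79.7% of its exonic bases, on the same strand, with the overlapping gene AC116366.3, whose own row is at 0 in every library, and whether reads went unassigned there was not tested. FANCF, an intronless gene and a part of the Fanconi core complex, had 5.6, 18.6 and 11.4 normalized counts in hairpin, 6.0, 8.8 and 7.0 in starved and 9.0, 1.9 and 10.6 in fed libraries. These few counts overlap between all 3 groups.

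**Figure D1:**
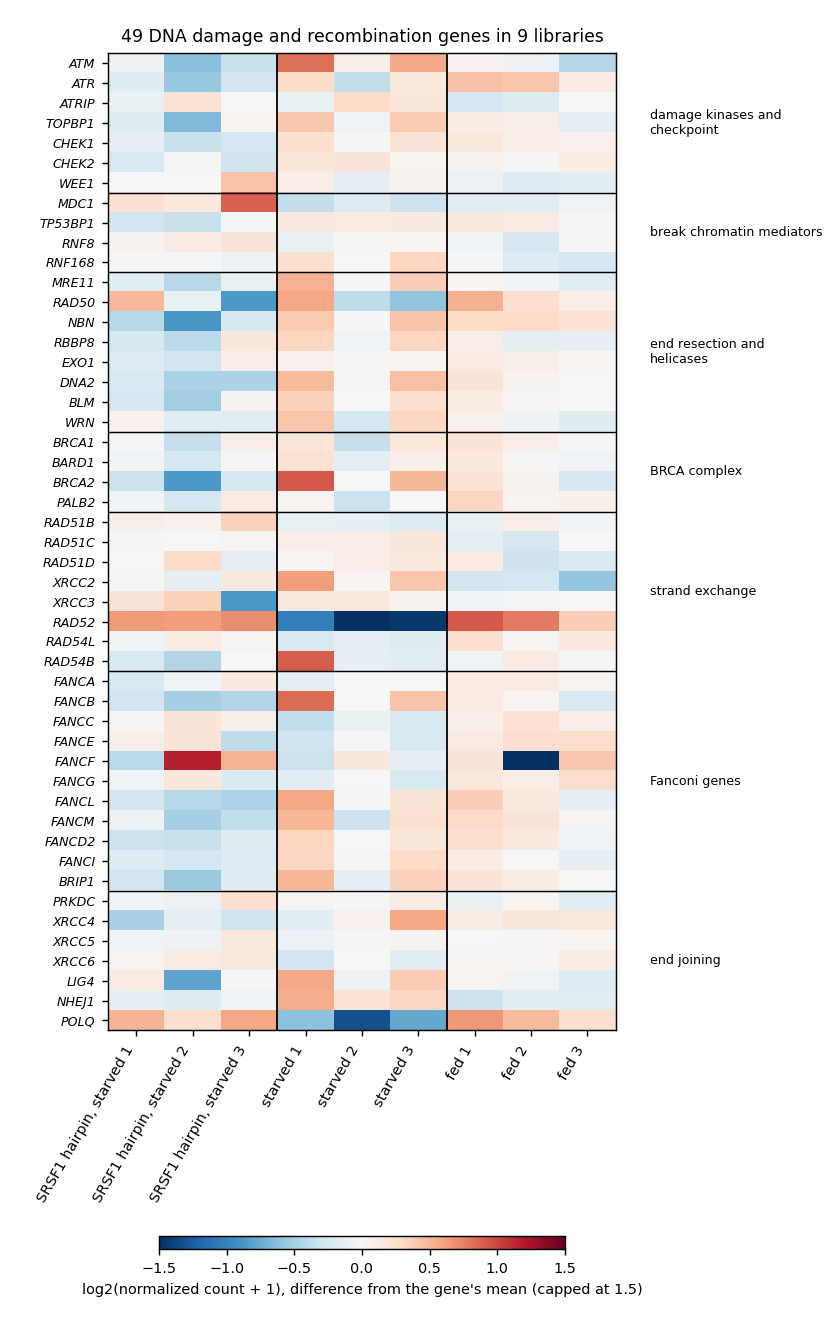
Levels of the 49 genes (rows, by role) in the 9 libraries (columns). Colour is the log2(normalized count + 1) of a library minus the gene's mean over the 9 libraries, red for above and blue for below, capped at 1.5. RAD52 and POLQ are blue in all 3 starved libraries and red in all hairpin and fed libraries, and XRCC2 is blue in all 3 fed libraries.

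Changes were tested with limma on log2(FPKM + 1) over the 11123 genes that passed the filter, with a Benjamini-Hochberg adjusted p under 0.05 as the threshold; fold changes on this scale understate the change of low genes, and fold values given with them are ratios of mean normalized counts. In starved against fed libraries 5 of the 47 repair genes rose (XRCC2, ATM, NHEJ1, RNF168 and RAD51C) and 5 fell (RAD52, POLQ, RAD54L, FANCG and FANCC), while 37 did not pass. Of all genes tested 42.8% passed in this comparison, 21.5% higher and 21.3% lower, beside 10.6% of the 47 each way. The median log2 fold change was 0.08 over the 47 and 0.03 over all genes. All starved libraries lay above all fed ones for 3407 of the 11123 genes and under them for 3181, beside 6 and 9 of the 47. Such separation was thus frequent over all genes, here and in hairpin against starved libraries. With TPM scaling, which brings the length-corrected values of each library to the same sum, 1 of the 47 rose and 7 fell, against 12.6% higher and 24.4% lower over all genes, and 34.1% of all calls were higher ones in place of 50.3%. With scaling by each library's own total 2 rose and 7 fell, against 15.1% higher and 25.9% lower over all genes, and 36.9% of all calls were higher ones. With the GC trend removed in each library 8 rose and 9 fell, against 25.4% higher and 24.9% lower over all genes. The count of 5 higher became 10 without starved replicate 2 (21.3% of the 47, against 20.8% of all genes). It became 3 without fed replicate 3 (6.4% against 15.7%). It became 2 (4.3%) without fed replicate 2, starved replicate 1 or starved replicate 3, against 16.0%, 17.2% and 16.4% of all genes. The count of 5 lower became 2 without fed replicate 1 (4.3% against 17.4% of all genes). It became 3 (6.4%) without fed replicate 2, fed replicate 3, starved replicate 1 or starved replicate 3. Over all genes 16.8%, 17.4%, 17.7% and 17.7% fell in these last fits.

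In hairpin against starved libraries, both of them starved for 12 h, 4 repair genes rose (RAD52, POLQ, MDC1 and FANCC) and 17 fell, among them BRCA2, FANCB, NBN, DNA2, ATM and FANCL with the largest changes, while 26 did not pass. Over all genes 46.4% passed, 22.5% higher and 23.9% lower, beside 8.51% and 36.2% of the 47. The median log2 fold change was -0.20 over the 47 and -0.04 over all genes. All hairpin libraries lay above all starved ones for 2760 of the 11123 genes and under them for 2915, beside 8 and 15 of the 47. The count of 17 lower became 10 without starved replicate 1 (21.3% of the 47, against 18.7% of all genes). It became 11 (23.4% of the 47) without starved replicate 3 or hairpin replicate 2, against 18.5% and 21.1% of all genes. It was 7 with TPM (14.9% of the 47, against 17.0% of all genes) and 9 with edgeR on recovered reads (19.1% of the 47, against 17.4% of all genes). This comparison and the one before share the starved libraries, so their values are given side by side below and not set against each other.

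In hairpin against fed libraries, which differ both in serum and in the hairpin, 1 repair gene rose (MDC1) and 6 fell (NBN, FANCL, ATR, DNA2, FANCD2 and CHEK1), and 40 did not pass. Of all genes 18.5% passed, 9.27% higher and 9.23% lower, and the medians of the log2 fold change were -0.13 over the 47 and -0.01 over all genes. All hairpin libraries lay above all fed ones for 2239 of the 11123 genes and under them for 2338, beside 4 and 13 of the 47. Over the genes tested, each hairpin library correlated more closely with every fed library than with any starved one. These correlations were 0.9574 to 0.9807 with fed and 0.9356 to 0.9615 with starved libraries. The count of 6 lower (12.8% of the 47) became 1 (2.1%) without fed replicate 1, fed replicate 2 or hairpin replicate 2. Over all genes 3.7%, 4.3% and 7.0% fell in these fits. The count became 4 (8.5%) without fed replicate 3 or hairpin replicate 1, against 4.7% and 6.9% of all genes. With TPM scaling MDC1 lost its call and 1 gene fell (7.55% of all genes lower, 5.70% higher), and without a filter MDC1 lost its call and 2 fell (5.03% lower, 5.97% higher). MDC1 also lost it without fed replicate 1, 2 or 3, without starved replicate 1 or 3, and with the GC trend removed in each library. A second gene passed with MDC1 when starved replicate 2 or hairpin replicate 3 was left out, with 10.4% and 11.2% of all genes higher. Over the 3 comparisons 38 changes of repair genes passed the threshold; 13 of them were kept under every one of up to 24 alternative settings, 25 were lost under at least 1, and 0 changed sign.

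**Figure D2:**
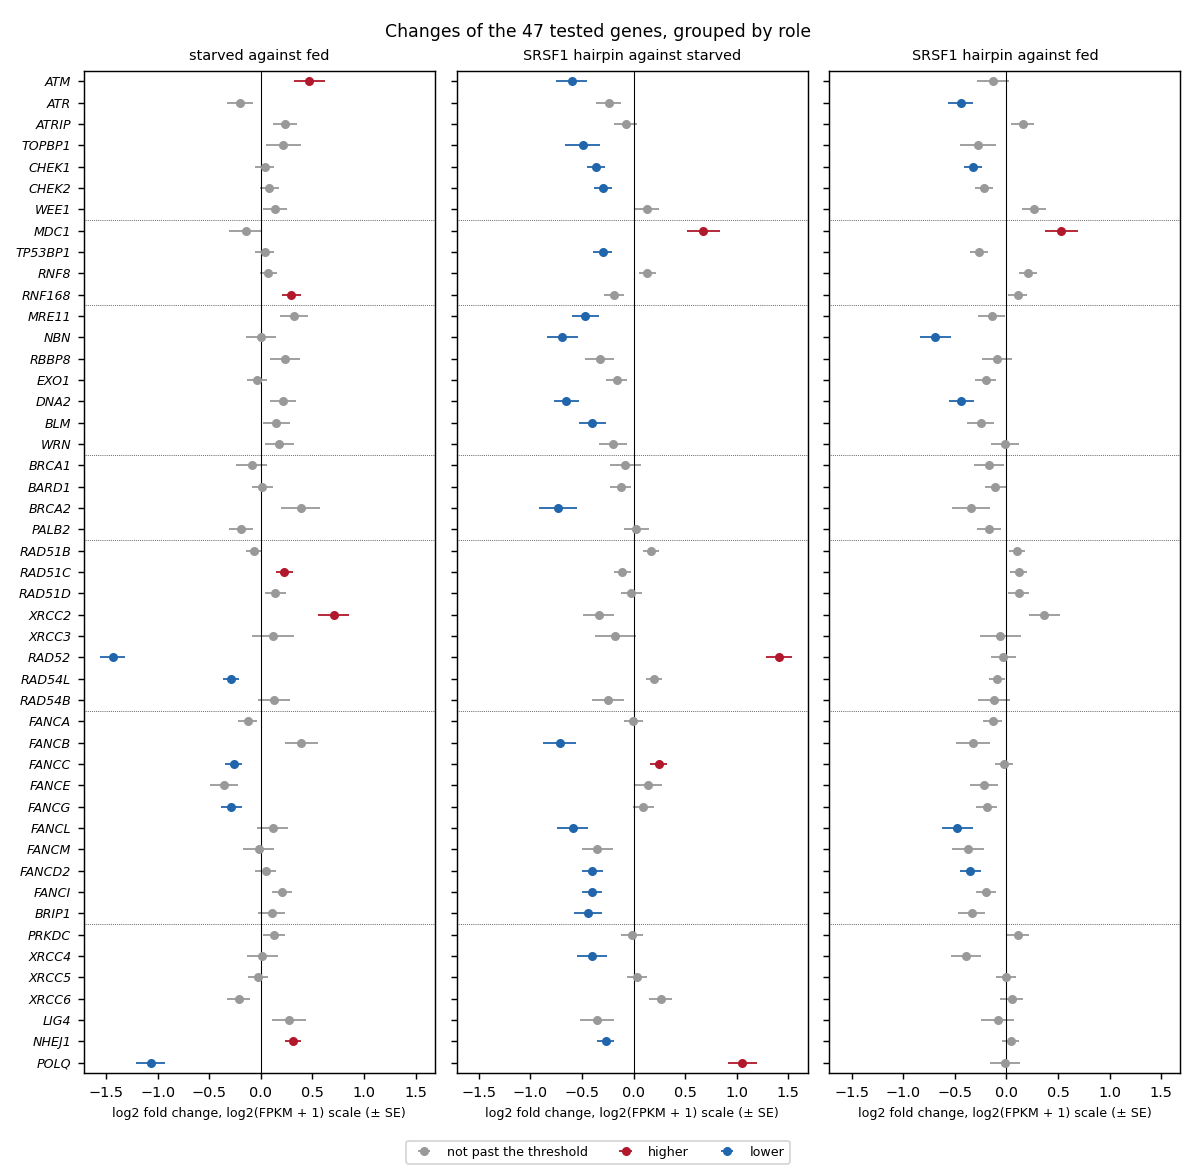
Log2 fold change of the 47 tested genes (rows, by role) in starved against fed, hairpin against starved and hairpin against fed libraries (panels), on the log2(FPKM + 1) scale with the standard error as bars. Red points passed the threshold as higher and blue points as lower; grey points did not pass. RAD52 and POLQ lie farthest from 0 in the first 2 panels and close to 0 in the third, and the blue points of the middle panel, 17 genes, run from the kinases at the top to end joining at the bottom.

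RAD52 anneals complementary single strands and, in human cells, serves as a second route to recombination when BRCA2 is lost. Its gene (ENSG00000002016; chromosome 12, 911736 to 990053, minus strand, GRCh38) had 295, 293 and 307 normalized counts in hairpin, 92.1, 63.9 and 68.6 in starved and 358, 325 and 244 in fed libraries. All 3 starved libraries lay far under every hairpin and fed library, and hairpin and fed libraries overlapped. The mean was 298 ± 7.5 in hairpin, 74.9 ± 15.1 in starved and 309 ± 58.6 in fed libraries (SD, n = 3 each). Starved libraries were 4.12-fold lower than fed ones (log2 fold change -1.44 ± 0.12 SE, limma adjusted p = 1.6e-05). Hairpin libraries were 3.98-fold higher than starved ones (log2 fold change 1.41 ± 0.12 SE, limma adjusted p = 1.58e-05). Hairpin and fed libraries did not differ past the threshold (log2 fold change -0.03 ± 0.12 SE, limma adjusted p = 0.892). Both calls held in 24 of 24 alternative settings. These were the largest changes of any of the 47 genes in either comparison.

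POLQ encodes polymerase theta, which joins ends through short matching stretches of sequence. The gene (ENSG00000051341; chromosome 3, 121431431 to 121545988, minus strand, GRCh38) had 785, 652 and 827 normalized counts in hairpin, 359.6, 222 and 326 in starved and 871, 769 and 655 in fed libraries. Again all starved libraries lay under all others, with starved replicate 2 the lowest, and hairpin and fed libraries overlapped. Its mean was 755 ± 91.4 in hairpin, 302 ± 71.9 in starved and 765 ± 108 in fed libraries (SD, n = 3 each). Starved libraries were 2.53-fold lower than fed ones (log2 fold change -1.07 ± 0.14 SE, limma adjusted p = 0.000223), and hairpin libraries 2.50-fold higher than starved ones (log2 fold change 1.05 ± 0.14 SE, limma adjusted p = 0.000222). In hairpin against fed libraries the log2 fold change was -0.01 (limma adjusted p = 0.957). Both calls held in 24 of 24 alternative settings.

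XRCC2 takes part in strand exchange during homologous recombination. The gene (ENSG00000196584; chromosome 7, 152644776 to 152676141, minus strand, GRCh38) had 2188, 1983 and 2396 normalized counts in hairpin, 3353, 2212 and 2884 in starved and 1789, 1822 and 1448 in fed libraries. Starved libraries were all above fed ones, hairpin libraries were also all above fed ones, and hairpin and starved libraries overlapped. In starved against fed libraries it was 1.67-fold higher (log2 fold change 0.70 ± 0.15 SE, limma adjusted p = 0.00354), a call kept in 24 of 24 alternative settings. The other comparisons did not pass: the log2 fold change was -0.34, limma adjusted p = 0.0865 in hairpin against starved libraries, and 0.37, limma adjusted p = 0.11 in hairpin against fed libraries.

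RAD52, POLQ and XRCC2 had the largest changes in starved against fed libraries, and the 250 bases before the start of each are shown from RefSeq (GRCh38.p14, all 3 on the minus strand, 5′ to 3′), at chr12:949695-949944 for RAD52, chr3:121545989-121546238 for POLQ and chr7:152676142-152676391 for XRCC2. The RAD52 start used by RefSeq lies inside the span the table gives for the gene. Capitals mark a match, on the opposite strand, to the CHR word TTTGAA, which lies 230 bases before the POLQ start.
RAD52 promoter: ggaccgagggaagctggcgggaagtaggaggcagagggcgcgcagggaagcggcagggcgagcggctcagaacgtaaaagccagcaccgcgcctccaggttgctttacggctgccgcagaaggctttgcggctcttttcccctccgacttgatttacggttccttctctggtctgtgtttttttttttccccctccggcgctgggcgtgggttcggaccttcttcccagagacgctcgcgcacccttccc
POLQ promoter: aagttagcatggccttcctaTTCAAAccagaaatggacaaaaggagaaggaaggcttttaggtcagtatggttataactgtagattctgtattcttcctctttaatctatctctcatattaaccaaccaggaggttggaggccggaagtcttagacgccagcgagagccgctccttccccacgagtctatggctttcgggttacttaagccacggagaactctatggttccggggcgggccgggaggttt
XRCC2 promoter: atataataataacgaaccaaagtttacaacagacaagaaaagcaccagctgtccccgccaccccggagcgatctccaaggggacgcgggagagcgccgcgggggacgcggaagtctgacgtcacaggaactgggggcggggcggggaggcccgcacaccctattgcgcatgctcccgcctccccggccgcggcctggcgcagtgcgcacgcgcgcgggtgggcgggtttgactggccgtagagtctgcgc
In the windows of 250 bases before to 50 after the start that were at hand for 41 of the 49 genes, searched on both strands, the E2F words TTTGGCGC or TTTCGCGC stood in 4 (EXO1, TOPBP1, FANCC and XRCC6), 9.76% against 1.15% of all 35116 promoters at hand. Each of the 41 genes counted once. The 35116 were not limited to a single window per gene or to genes measured here, so the shares come from unlike sets. The NF-Y word CCAAT stood in 43.9% against 34.6%, and TTTGAA in 12.2% against 15.2%. The POLQ window holds 2 matches to TTTGAA, and the match not marked above ends past the start, outside the bases shown. The 3 windows shown hold neither an E2F word nor CCAAT, which says only that these letters are not in them.

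**Figure D3:**
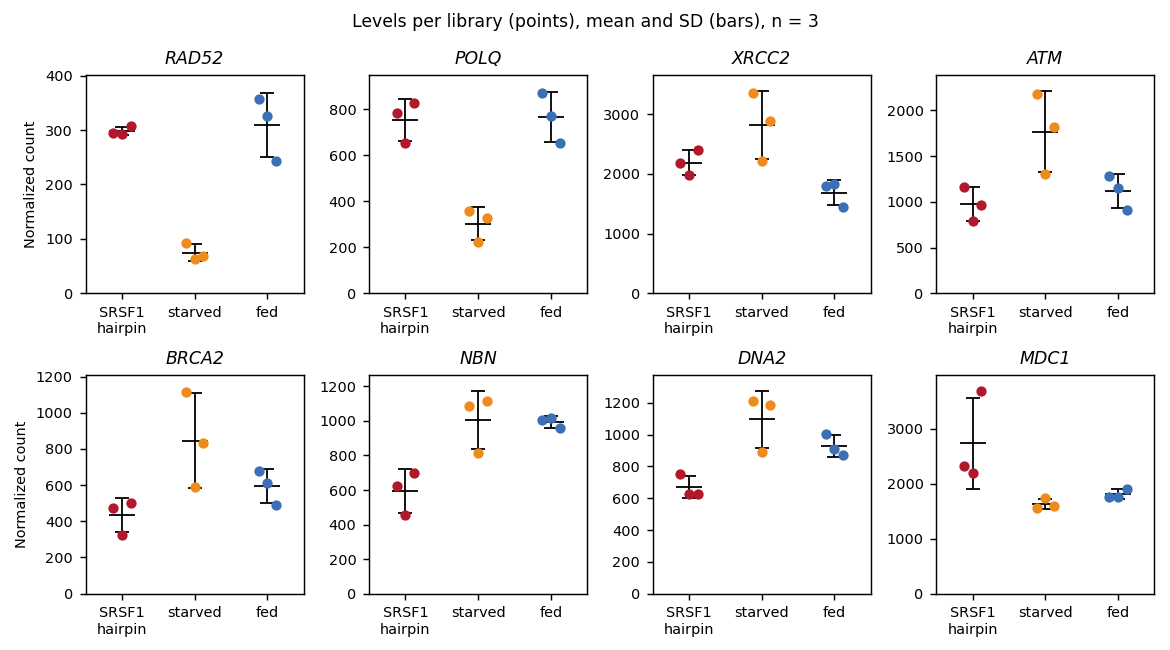
Normalized counts of 8 repair genes (panels) in each library, in the order hairpin, starved, fed. Points are libraries, and the bar shows the mean and SD of 3. For RAD52 and POLQ the starved points lie under all others, for XRCC2 and ATM the starved points lie above the fed ones, for BRCA2 the hairpin points lie under the starved ones, for NBN and DNA2 the hairpin points lie under both other groups, and for MDC1 they lie above both.

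Among the other strand exchange genes, RAD54L, a motor protein that moves along double-stranded DNA, had 525, 583 and 555 normalized counts in hairpin, 461, 490.4 and 475 in starved and 636, 555 and 591 in fed libraries. Starved libraries lay under all hairpin and fed libraries. In starved against fed libraries it was 1.25-fold lower (log2 fold change -0.29 ± 0.08 SE, limma adjusted p = 0.0147), a call lost in 1 of 24 alternative settings (highest adjusted p 0.0691), without fed replicate 1. In hairpin against starved libraries its log2 fold change of 0.20 did not pass (limma adjusted p = 0.0649). RAD54L shares 25.1% of its exonic bases with LRRC41 on the opposite strand, whose own row holds 1226 to 1953 normalized counts. RAD51C, a strand exchange gene, had 1044, 1051 and 1088 normalized counts in hairpin, 1132, 1136 and 1190.3 in starved and 966, 889.8 and 1066 in fed libraries. Here the starved libraries lay above all others, by a small margin (1.18-fold higher than fed; log2 fold change 0.23 ± 0.08 SE, limma adjusted p = 0.0443). RAD51C lost this call in 12 of 24 alternative settings (highest adjusted p 0.289), among them without fed replicate 1 or 2, or starved replicate 1, 2 or 3, or hairpin replicate 1 or 2. RAD51B, RAD51D, XRCC3 and RAD54B did not pass in any of the 3 comparisons. XRCC3 had 544, 606 and 260.3 normalized counts in hairpin, 531, 531 and 494 in starved and 464, 469 and 477 in fed libraries, with hairpin replicate 3 far under all others. It shares 76.7% of its exonic bases with KLC1 on the opposite strand, and whether counting used strand is not given in the sources used here. RAD54B had 70.9, 61.1 and 83.7 normalized counts in hairpin, 157, 74.9 and 74.4 in starved and 80.2, 90.4 and 81.6 in fed libraries, highest in starved replicate 1, and shares 59.1% of its exonic bases with FSBP on the same strand.

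Of the 7 damage kinase and checkpoint genes, 4 fell in hairpin against starved libraries (ATM, TOPBP1, CHEK1 and CHEK2), 57.1% against 23.9% of all genes. ATM, the kinase that double-strand breaks activate, had 1166, 791 and 969.9 normalized counts in hairpin, 2180.3, 1308 and 1820.4 in starved and 1285, 1151 and 915 in fed libraries. Every starved library lay above every hairpin and fed library, and hairpin and fed libraries overlapped. ATM was 1.81-fold lower in hairpin than in starved libraries (log2 fold change -0.60 ± 0.15 SE, limma adjusted p = 0.00838), a call kept in 23 of 23 alternative settings. In starved against fed libraries it was 1.58-fold higher (log2 fold change 0.47 ± 0.15 SE, limma adjusted p = 0.0286), and lost this call in 8 of 23 alternative settings (highest adjusted p 0.119), among them without fed replicate 2 or 3, or starved replicate 1 or 3. The rest of the 8 were TPM scaling, scaling by each library's own total, edgeR on 8 libraries and no filter. ATR, the kinase that single-stranded DNA activates, had 642, 489 and 595 normalized counts in hairpin, 881, 563 and 815 in starved and 986, 971 and 789.9 in fed libraries. Hairpin libraries lay under all fed ones, with the starved libraries across both. ATR was 1.59-fold lower in hairpin than in fed libraries (log2 fold change -0.44 ± 0.12 SE, limma adjusted p = 0.0326), and lost this call in 5 of 23 alternative settings (highest adjusted p 0.119), among them without fed replicate 1 or 2, or hairpin replicate 2. Its partner ATRIP, which brings ATR to single-stranded DNA, did not pass in any comparison.

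CHEK1, the checkpoint kinase that ATR switches on, had 842, 741 and 781 normalized counts in hairpin, 1116, 923 and 1069.5 in starved and 1042, 998 and 979 in fed libraries. Hairpin libraries lay under all libraries of both other groups, which overlapped. The kinase was 1.31-fold lower in hairpin than in starved libraries (log2 fold change -0.36 ± 0.09 SE, limma adjusted p = 0.00753) and 1.28-fold lower than in fed ones (log2 fold change -0.33 ± 0.09 SE, limma adjusted p = 0.0305). CHEK1 lost the first call in 2 of 24 alternative settings (highest adjusted p 0.0688), TPM scaling and edgeR on 8 libraries. It lost the second in 5 of 24 alternative settings (highest adjusted p 0.116): TPM scaling and without fed replicate 1, 2 or 3, or hairpin replicate 2. CHEK2, the kinase downstream of ATM, fell in hairpin against starved libraries by less (log2 fold change -0.30, limma adjusted p = 0.0176). CHEK2 lost this call in 5 of 24 alternative settings (highest adjusted p 0.082), among them without starved replicate 1, or hairpin replicate 1. TOPBP1, which activates ATR, fell as well (log2 fold change -0.49, limma adjusted p = 0.0356). TOPBP1 lost this call in 11 of 24 alternative settings (highest adjusted p 0.14), among them without fed replicate 2, or starved replicate 1 or 3, or hairpin replicate 1 or 2. TOPBP1 had 1918, 1384 and 2241 normalized counts in hairpin, 2900.4, 2112 and 2842 in starved and 2366, 2316 and 1988 in fed libraries, and hairpin replicate 3 lay above starved replicate 2. WEE1, which holds CDK1 back before mitosis, had 1085, 1079 and 1459.5 normalized counts in hairpin, 1159, 981 and 1124 in starved and 1014, 944 and 966 in fed libraries. Hairpin libraries lay above fed ones and overlapped starved ones, and WEE1 did not pass.

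Among the 4 chromatin mediators, MDC1, the protein that reads phosphorylated H2AX at breaks, had 2326, 2202 and 3687 normalized counts in hairpin, 1557, 1741 and 1598 in starved and 1763, 1767 and 1912 in fed libraries. All hairpin libraries lay above all others, and hairpin replicate 3, the library with the highest mitochondrial share, was the highest. MDC1 was 1.68-fold higher in hairpin than in starved libraries (log2 fold change 0.68 ± 0.16 SE, limma adjusted p = 0.00615), a call kept in 24 of 24 alternative settings. Against fed libraries it was 1.51-fold higher (log2 fold change 0.53 ± 0.16 SE, limma adjusted p = 0.043), and it lost this call in 9 of 24 alternative settings (highest adjusted p 0.132), among them without fed replicate 1, 2 or 3, or starved replicate 1 or 3. Removal of the GC trend and TPM scaling were also among the 9. RNF168, the ubiquitin ligase that marks H2A for 53BP1, had 451, 436 and 424 normalized counts in hairpin, 528, 446 and 557 in starved and 441, 389.6 and 372 in fed libraries. Starved libraries lay above fed ones by a narrow gap between starved replicate 2 and fed replicate 1. RNF168 was 1.27-fold higher in starved than in fed libraries (log2 fold change 0.30 ± 0.10 SE, limma adjusted p = 0.0284), and lost this call in 7 of 24 alternative settings (highest adjusted p 0.235), among them without fed replicate 2 or 3, or starved replicate 1 or 3. TP53BP1, which shields ends from resection, fell in hairpin against starved libraries (log2 fold change -0.30, limma adjusted p = 0.0194). TP53BP1 lost this call in 8 of 24 alternative settings (highest adjusted p 0.104), among them without starved replicate 1 or 3, or hairpin replicate 1 or 2, and it shares 28.7% of its exonic bases with TUBGCP4 on the opposite strand. RNF8, the ligase upstream of RNF168, did not pass in any comparison.

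Of the 7 tested resection genes and helicases, 4 fell in hairpin against starved libraries (NBN, DNA2, MRE11 and BLM), 57.1% against 23.9% of all genes. NBN, the subunit that links MRE11 and RAD50 to ATM, had 623, 454 and 701 normalized counts in hairpin, 1085, 812 and 1115 in starved and 1005, 1019 and 957 in fed libraries. Hairpin libraries lay under every starved and fed library, and these 2 groups overlapped. NBN was 1.69-fold lower in hairpin than in starved libraries (log2 fold change -0.69 ± 0.15 SE, limma adjusted p = 0.00342) and 1.68-fold lower than in fed ones (log2 fold change -0.69 ± 0.15 SE, limma adjusted p = 0.0113), and both calls held in 24 of 24 alternative settings. It was the one repair gene whose call in hairpin against fed libraries was kept in all of them. DNA2, a nuclease that cuts long stretches of one strand, had 751, 627 and 630.1 normalized counts in hairpin, 1214, 888 and 1187 in starved and 1004, 908 and 872 in fed libraries. Again every hairpin library lay under every other library. DNA2 was 1.64-fold lower in hairpin than in starved libraries (log2 fold change -0.65 ± 0.12 SE, limma adjusted p = 0.00172), a call kept in 24 of 24 alternative settings, and 1.39-fold lower than in fed ones (log2 fold change -0.44 ± 0.12 SE, limma adjusted p = 0.034), a call lost in 7 of 24 alternative settings (highest adjusted p 0.133), among them without fed replicate 1, 2 or 3, or hairpin replicate 2 or 3.

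MRE11, the nuclease of the complex, averaged 968 ± 110.3 normalized counts in hairpin, 1389 ± 263 in starved and 1078 ± 75.7 in fed libraries (SD, n = 3 each). It fell in hairpin against starved libraries (log2 fold change -0.47, limma adjusted p = 0.0151). MRE11 lost this call in 5 of 24 alternative settings (highest adjusted p 0.0748), among them without starved replicate 1 or 3, or hairpin replicate 2. BLM, the helicase mutated in Bloom syndrome, fell likewise (log2 fold change -0.40, limma adjusted p = 0.0277), although hairpin replicate 3 lay above starved replicate 2. BLM lost this call in 9 of 24 alternative settings (highest adjusted p 0.133), among them without starved replicate 1 or 3, or hairpin replicate 1 or 2. RBBP8, which starts resection with MRE11, EXO1, the second long-range nuclease, and WRN, the helicase of Werner syndrome, did not pass in any comparison. EXO1 had 1874, 1757 and 2304 normalized counts in hairpin, 2237, 2174 and 2213 in starved and 2340.0, 2270.2 and 2192 in fed libraries, which overlap.

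Of the 4 BRCA genes, BRCA2, a mediator of homologous recombination, had 473, 325 and 499 normalized counts in hairpin, 1113, 591 and 835 in starved and 678, 612 and 492 in fed libraries. Hairpin libraries lay under all starved ones and overlapped the fed ones, and the starved libraries themselves spread widely. BRCA2 averaged 432 ± 93.9 in hairpin, 846 ± 261 in starved and 594 ± 94.3 in fed libraries (SD, n = 3 each). It was 1.96-fold lower in hairpin than in starved libraries (log2 fold change -0.73 ± 0.18 SE, limma adjusted p = 0.00847), a call kept in 23 of 23 alternative settings, and did not pass in starved against fed libraries (0.39, limma adjusted p = 0.118) or in hairpin against fed libraries (-0.35, limma adjusted p = 0.21). BRCA1, which with BARD1 forms a ubiquitin ligase that favours resection, had 1834, 1459 and 1991 normalized counts in hairpin, 2109, 1456 and 2070.3 in starved and 2124, 1984 and 1840.5 in fed libraries. The 3 groups overlapped and no comparison of BRCA1 passed, with log2 fold changes of -0.09 in starved against fed, -0.08 in hairpin against starved and -0.17 in hairpin against fed libraries. BARD1 and PALB2, which ties BRCA1 to BRCA2, did not pass either.

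Of the 10 tested Fanconi genes, 5 fell in hairpin against starved libraries (FANCB, FANCL, BRIP1, FANCD2 and FANCI), 1 rose (FANCC) and 4 did not pass. These shares were 50% lower and 10% higher, against 23.9% and 22.5% of all genes. FANCB, a core subunit encoded on the X chromosome, had 231, 200.0 and 209 normalized counts in hairpin, 507, 284 and 381 in starved and 307, 292 and 241 in fed libraries. Hairpin libraries lay under every other library. FANCB was 1.83-fold lower in hairpin than in starved libraries (log2 fold change -0.72 ± 0.16 SE, limma adjusted p = 0.00464), a call kept in 24 of 24 alternative settings. FANCL, the ubiquitin ligase of the core, had 297, 271 and 263 normalized counts in hairpin, 542, 359 and 416 in starved and 469, 402 and 332 in fed libraries. Hairpin libraries again lay under all others. FANCL was 1.58-fold lower in hairpin than in starved libraries (log2 fold change -0.59 ± 0.15 SE, limma adjusted p = 0.00844), a call kept in 24 of 24 alternative settings, and 1.45-fold lower than in fed ones (log2 fold change -0.48 ± 0.15 SE, limma adjusted p = 0.0492), which was lost in 11 of 24 alternative settings (highest adjusted p 0.179), among them without fed replicate 1 or 2, or starved replicate 3, or hairpin replicate 1, 2 or 3.

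FANCD2, which FANCL marks with ubiquitin at a crosslink, had 1064, 1060.0 and 1172 normalized counts in hairpin, 1662, 1342 and 1505 in starved and 1587, 1477 and 1284 in fed libraries. All hairpin libraries lay under all others, and starved and fed libraries overlapped. FANCD2 was 1.37-fold lower in hairpin than in starved libraries (log2 fold change -0.40 ± 0.10 SE, limma adjusted p = 0.00882). FANCD2 lost this call in 1 of 24 alternative settings (highest adjusted p 0.0627), TPM scaling. It was 1.32-fold lower in hairpin than in fed ones (log2 fold change -0.35 ± 0.10 SE, limma adjusted p = 0.0372). FANCD2 lost this call in 7 of 24 alternative settings (highest adjusted p 0.149), among them without fed replicate 1 or 2, or starved replicate 3, or hairpin replicate 1 or 2. Its partner FANCI also fell in hairpin against starved libraries (log2 fold change -0.40, limma adjusted p = 0.00712). FANCI lost this call in 1 of 24 alternative settings (highest adjusted p 0.0648), TPM scaling. BRIP1, the helicase also known as FANCJ, fell in the same comparison (log2 fold change -0.44, limma adjusted p = 0.0191). BRIP1 lost this call in 5 of 23 alternative settings (highest adjusted p 0.0811), among them without starved replicate 1 or 3, or hairpin replicate 2.

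FANCC, another core subunit, had 511, 574 and 533 normalized counts in hairpin, 391, 470.5 and 430.1 in starved and 531, 583 and 539 in fed libraries. Starved libraries lay under all others, and hairpin and fed libraries overlapped. FANCC was 1.28-fold lower in starved than in fed libraries (log2 fold change -0.26 ± 0.08 SE, limma adjusted p = 0.0264) and 1.25-fold higher in hairpin than in starved ones (log2 fold change 0.24 ± 0.08 SE, limma adjusted p = 0.0364). FANCC lost the first call in 6 of 23 alternative settings (highest adjusted p 0.212), among them without fed replicate 1, 2 or 3, or starved replicate 1 or 3. It lost the second in 12 of 23 alternative settings (highest adjusted p 0.169), among them without fed replicate 1, 2 or 3, or starved replicate 1 or 3, or hairpin replicate 1 or 2. FANCG, a scaffold of the core, had 546, 641 and 495 normalized counts in hairpin, 507, 569 and 486 in starved and 636, 609.9 and 686 in fed libraries. Starved libraries lay under all fed ones, and hairpin libraries overlapped both. FANCG was 1.24-fold lower in starved than in fed libraries (log2 fold change -0.28 ± 0.10 SE, limma adjusted p = 0.0463), and lost this call in 10 of 24 alternative settings (highest adjusted p 0.153), among them without fed replicate 1, 2 or 3, or starved replicate 1 or 3, or hairpin replicate 1. FANCE missed the threshold in the same comparison (log2 fold change -0.36, limma adjusted p = 0.0502), and FANCA and FANCM, a DNA motor that recruits the core, did not pass in any. FANCA shares 23.6% of its exonic bases with ZNF276 on the opposite strand.

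In end joining, the Ku genes XRCC5 and XRCC6 and the kinase gene PRKDC did not pass in any comparison. XRCC6 had 12768, 13524 and 13905 normalized counts in hairpin, 10172, 12364 and 11043 in starved and 12709.5, 12645 and 13497 in fed libraries. Starved libraries lay under all others, yet neither the log2 fold change of -0.21 in starved against fed (limma adjusted p = 0.139) nor that of 0.26 in hairpin against starved libraries (limma adjusted p = 0.071) passed. XRCC5 and PRKDC had log2 fold changes of -0.03 and 0.13 in starved against fed, and 0.03 and -0.01 in hairpin against starved libraries. NHEJ1, also called XLF, which aligns ends for ligation, had 125, 122 and 132 normalized counts in hairpin, 203, 159.8 and 172 in starved and 112, 123 and 123 in fed libraries. Starved libraries lay above all others. NHEJ1 was 1.50-fold higher in starved than in fed libraries (log2 fold change 0.31 ± 0.08 SE, limma adjusted p = 0.0106). NHEJ1 lost this call in 1 of 23 alternative settings (highest adjusted p 0.0585), TPM scaling. It was 1.41-fold lower in hairpin than in starved ones (log2 fold change -0.27 ± 0.08 SE, limma adjusted p = 0.0195). NHEJ1 lost this call in 6 of 23 alternative settings (highest adjusted p 0.0772), among them without starved replicate 1, or hairpin replicate 2. NHEJ1 shares 65.4% of its exonic bases with AC068946.1 on the same strand. XRCC4, the partner of the ligase, fell in hairpin against starved libraries (log2 fold change -0.41, limma adjusted p = 0.0429). XRCC4 had 151, 191 and 172 normalized counts in hairpin, 189, 223 and 317 in starved and 229, 239.5 and 238 in fed libraries, so that hairpin and starved libraries overlapped and starved replicate 3 was the highest. XRCC4 lost this call in 13 of 24 alternative settings (highest adjusted p 0.437), among them without fed replicate 1, 2 or 3, or starved replicate 2 or 3, or hairpin replicate 1 or 3. LIG4, the ligase itself, did not pass in any comparison.

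The 47 genes differ from the rest of the table in composition: the median GC content of their longest coding transcripts was 42.6%, against 48.6% over all genes tested, and the median transcript length was 4580 bases against 3477. In hairpin against starved libraries their log2 fold changes were higher at higher GC content, with a Spearman correlation of 0.67 over the 47 genes and 0.21 over 11103 genes (a description across genes, which share libraries). Under 40% GC 9 of 14 repair genes fell (64.3%), beside 37.7% of 1735 genes of the same GC range. At 40 to 45% GC 5 of 18 fell (27.8%), beside 29.5% of 2380 genes, and at 45% or more 3 of 15 fell, beside 18.6% of 6988 genes. With the trend of GC content removed in each library, 16 repair genes fell in this comparison, all of them among the 17, and 26.1% of all genes fell. The median log2 fold change of the repair genes was then -0.10, against -0.20 with the trend kept. With starved replicate 2, the library that leaned most to GC-rich transcripts, left out, 23 repair genes fell, 16 of them among the 17. This was 48.9% of the 47, against 23.8% of all genes. The part of GC content and of these libraries in the changes was not tested further.

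**Figure D4:**
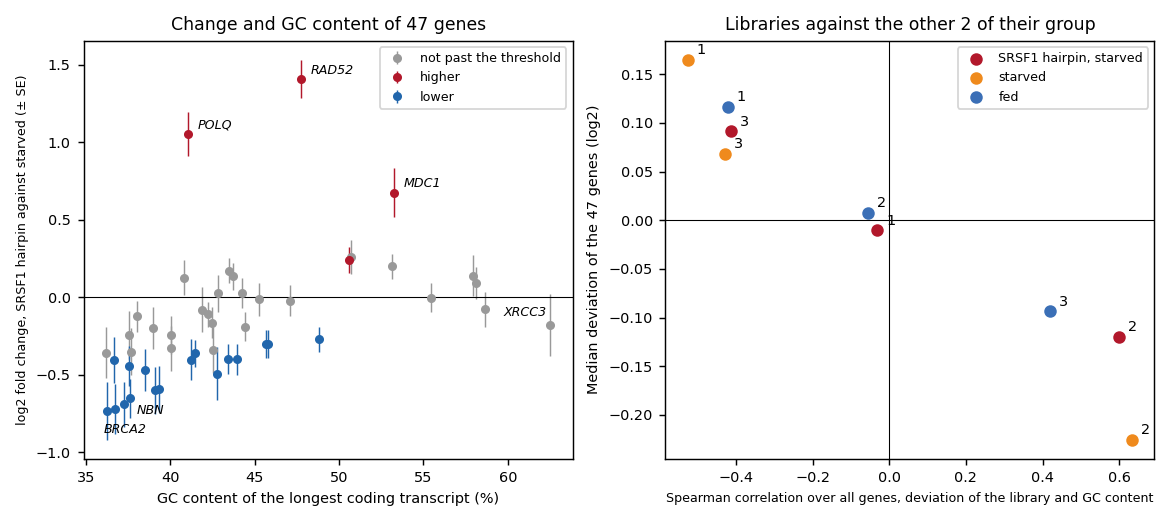
Left, log2 fold change (± SE) of the 47 genes in hairpin against starved libraries over the GC content (%) of the longest coding transcript; red points rose, blue points fell and grey points did not pass. Right, for each library, the median log2 deviation of the 47 genes from the other 2 libraries of the group over the Spearman correlation between the library's deviation and GC content across all genes. On the left, 9 of the 17 blue points lie under 40% GC, and on the right the libraries that lean to GC-rich transcripts have the lowest medians, down to -0.23 in starved replicate 2.

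Partner genes of the same pathways were followed in 8 lists with 123 tested genes, and 5 of the lists are described here. Over the 123, 35 rose and 13 fell in starved against fed libraries (28.5% and 10.6%, against 21.5% and 21.3% of all genes; median log2 fold change 0.10 against 0.03). In hairpin against starved libraries 16 rose and 41 fell (13% and 33.3%, against 22.5% and 23.9%; median -0.15 against -0.04). In hairpin against fed libraries 6 rose and 12 fell (4.88% and 9.76%, against 9.27% and 9.23%; median -0.10 against -0.01). Of 30 recombination partners, 33.3% rose and 6.67% fell in starved against fed libraries (10 and 2 genes), against 21.5% and 21.3% of all genes. Shares in hairpin against starved libraries were 3.33% higher and 40% lower (1 and 12), against 22.5% and 23.9%, and in hairpin against fed libraries 3.33% rose and 6.67% fell (1 and 2), against 9.27% and 9.23%. Among them the nuclease subunit EME2 had log2 fold changes of 0.64 in starved against fed (limma adjusted p = 0.00252) and -0.91 in hairpin against starved libraries (limma adjusted p = 0.000291). The resolvase GEN1, which cuts Holliday junctions, fell in the second of these (-0.81, limma adjusted p = 0.00362). RMI2, a subunit that works with BLM, showed the other order, with -0.70 in starved against fed (limma adjusted p = 0.000637) and 0.73 in hairpin against starved libraries (limma adjusted p = 0.000476).

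Of 13 tested Fanconi partners, 15.4% rose and 38.5% fell in starved against fed libraries (2 and 5 genes), against 21.5% and 21.3% of all genes. Of the 13, 38.5% rose and 15.4% fell in hairpin against starved libraries (5 and 2), against 22.5% and 23.9%, and in hairpin against fed libraries 15.4% fell (2 genes), against 9.23%. DCLRE1A (SNM1A), a nuclease that acts on crosslinks, averaged 574 ± 102 normalized counts in hairpin, 219 ± 39.9 in starved and 694 ± 24.6 in fed libraries (SD, n = 3 each). DCLRE1A fell in starved against fed (log2 fold change -1.44 ± 0.13 SE, limma adjusted p = 2.31e-05) and rose in hairpin against starved libraries (log2 fold change 1.17 ± 0.13 SE, limma adjusted p = 7.06e-05). The same pair of log2 fold changes was -0.89 (limma adjusted p = 4.58e-05) and 0.69 (limma adjusted p = 0.0002) for the nuclease FAN1, and -0.96 (limma adjusted p = 0.000172) and 0.82 (limma adjusted p = 0.000439) for ERCC1, a subunit of a crosslink nuclease. FAAP100, a partner of FANCB and FANCL, fell in starved against fed (-1.04, limma adjusted p = 7.41e-05), rose in hairpin against starved (0.64, limma adjusted p = 0.00133) and fell in hairpin against fed libraries (-0.40, limma adjusted p = 0.0384).

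Of 16 partners of 53BP1 and the BRCA1-A complex, 6 rose in starved against fed libraries and 10 did not pass (37.5% higher, against 21.5% of all genes). Of the 16, in hairpin against starved libraries 12.5% rose and 31.2% fell (2 and 5 genes), against 22.5% and 23.9%, and in hairpin against fed libraries 12.5% rose and 18.8% fell (2 and 3), against 9.27% and 9.23%. SHLD1, a shieldin subunit that acts with 53BP1, averaged 44.3 ± 4.3 normalized counts in hairpin, 109.7 ± 17.9 in starved and 52.8 ± 4.4 in fed libraries (SD, n = 3 each); it rose in starved against fed (0.75, limma adjusted p = 0.000306) and fell in hairpin against starved libraries (-0.91, limma adjusted p = 8.36e-05). RIF1, which carries the 53BP1 signal to shieldin, fell in hairpin against starved (-0.82, limma adjusted p = 0.00415) and in hairpin against fed libraries (-0.84, limma adjusted p = 0.0118). BRCC3, a deubiquitinase of the BRCA1-A complex, fell in the same 2 comparisons (-0.83, limma adjusted p = 0.000225, and -0.57, limma adjusted p = 0.00743).

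Of 17 checkpoint partners, 29.4% rose and 17.6% fell in starved against fed libraries (5 and 3 genes), against 21.5% and 21.3% of all genes. Of the 17, in hairpin against starved libraries 23.5% rose and 17.6% fell (4 and 3), against 22.5% and 23.9%, and in hairpin against fed libraries 17.6% rose and 11.8% fell (3 and 2), against 9.27% and 9.23%. RAD1 and HUS1, subunits of the 9-1-1 clamp that helps TOPBP1 to activate ATR, had opposite signs in starved against fed libraries. RAD1 fell in starved against fed (-0.74, limma adjusted p = 0.00023) and rose in hairpin against starved libraries (0.82, limma adjusted p = 0.000107), while HUS1 rose in the first (0.82, limma adjusted p = 9.21e-05) and fell in the second (-0.36, limma adjusted p = 0.00957). In hairpin against fed libraries HUS1 rose (0.45, limma adjusted p = 0.00995). The remaining clamp subunit, RAD9A, named after its values were seen, rose in starved against fed libraries (0.32, limma adjusted p = 0.0351). RAD17, which loads the clamp, fell in starved against fed (-0.90, limma adjusted p = 0.000813) and rose in hairpin against starved libraries (0.59, limma adjusted p = 0.00771). Of 14 tested partners of end joining and single-strand break repair, 21.4% rose and 7.14% fell in starved against fed libraries (3 and 1 genes), against 21.5% and 21.3% of all genes, and 7.14% rose and 28.6% fell in hairpin against starved libraries (1 and 4), against 22.5% and 23.9%. LIG3, the ligase used in single-strand break repair and in joining by polymerase theta, averaged 799 ± 112 normalized counts in hairpin, 1739 ± 26.7 in starved and 983 ± 49.1 in fed libraries (SD, n = 3 each). LIG3 rose in starved against fed (0.73, limma adjusted p = 0.000172) and fell in hairpin against starved libraries (-0.98, limma adjusted p = 2.4e-05).

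Values of cell cycle and p53 genes are given beside these, and their part in the changes of the repair genes was not tested. Of all genes 21.5% and 21.3% were higher and lower in starved against fed, 22.5% and 23.9% in hairpin against starved, and 9.27% and 9.23% in hairpin against fed libraries. Of 20 S phase genes, 10% rose and 10% fell in starved against fed (2 each), 5% rose and 20% fell in hairpin against starved (1 and 4), and 5% rose and 10% fell in hairpin against fed libraries (1 and 2). The summed normalized counts of these 20 were 61856 to 64419 in hairpin, 62814 to 69970 in starved and 64345 to 65927 in fed libraries. Of 15 G2 and M phase genes, 6.67% rose and 26.7% fell in starved against fed (1 and 4), 13.3% rose and 13.3% fell in hairpin against starved (2 each), and 26.7% fell in hairpin against fed libraries (4). Their sums were 39077 to 46459 in hairpin, 39608 to 43445 in starved and 46244 to 48966 in fed libraries, so that starved libraries lay under all fed ones and hairpin libraries overlapped both. Of 19 genes known as p53 targets, 57.9% rose in starved against fed (11 genes) and 8 did not pass, 26.3% rose and 36.8% fell in hairpin against starved (5 and 7), and 31.6% rose in hairpin against fed libraries (6). CDKN1A, the CDK inhibitor p21, averaged 1161 ± 192 normalized counts in hairpin, 478 ± 53.7 in starved and 451 ± 11.3 in fed libraries (SD, n = 3 each). It rose in hairpin against starved (log2 fold change 1.20 ± 0.12 SE, limma adjusted p = 3.99e-05) and in hairpin against fed libraries (log2 fold change 1.28 ± 0.12 SE, limma adjusted p = 0.000138). BAX, which permeabilizes mitochondria in apoptosis, rose in starved against fed (1.05, limma adjusted p = 0.00287) and fell in hairpin against starved libraries (-1.04, limma adjusted p = 0.00277).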

How the data were processed

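RNA of 9 libraries of 293T cells was analysed, 3 per group. Libraries were made from 1.3 µg of total RNA with the SMARTER mRNA-Seq kit, per the labels' protocols; nothing read here names the aligner, counter, annotation or strand setting. The submitters' processing notes name a mouse build, yet the gene IDs are human, and the positions of all 49 genes overlap those of GENCODE 29 (GRCh38). The values the authors deposited are a signal, whole read counts divided by 1 size factor per library: whole reads were recovered for 100% of values in 8 libraries (tolerance 1e-08). The factor of starved replicate 1 lies too near 1 to be told from unscaled counts, so it was left out of the count test. The table is headed as FPKM, and the tests had been planned for FPKM; FPKM were therefore computed from these values, the table's gene lengths and the mean library total, which keeps the authors' scaling.

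limma 3.58.1 (R 4.3.3, trend, two-sided) was fitted to log2(FPKM + 1) with a pseudocount of 1, a filter of 1 FPKM in at least 3 libraries and 3 group means over all 9 libraries. p-values were Benjamini-Hochberg adjusted over the 11123 kept genes, with 0.05 as the threshold. Alternatives were other pseudocounts, filters and scalings, edgeR 4.0.16 on 8 libraries, a replicate block, and each library left out; scaling by own totals and removal of GC or length trends were added after the data were seen. The code was tested on simulated data. The members and lists were chosen with earlier results of these data known. Values are given by library for the 6 largest changes each way per comparison among repair genes past the threshold and for genes that define a role, and partner genes are named from the 3 largest changes past the threshold each way in each list and comparison. XRCC3, RAD54B, XRCC4, WEE1, EXO1 and TOPBP1 were given by library after their values were seen. A few partner genes are not reported here.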

Additional observations from a re-analysis of the deposited data

How the results depend on the processing

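Of the 38 repair gene changes past the threshold, 13 kept their call under all alternatives run, and 25 were lost under at least 1. With a filter of 5 FPKM, which tested fewer genes, 3119 of all genes passed in starved against fed and 3416 in hairpin against starved libraries. With it 3 of 35 tested repair genes rose in starved against fed (8.57%, against 24.8% of all genes). With TPM 1 repair gene rose in starved against fed (12.6% of all genes) and 7 fell in hairpin against starved libraries (17.0% of all genes). In hairpin against fed libraries 0 rose and 1 fell with TPM (5.70% and 7.55% of all genes). edgeR on 8 libraries called 3870, 4081 and 1933 genes in starved against fed, hairpin against starved and hairpin against fed. With edgeR 2 repair genes rose in starved against fed (15.9% of all genes) and 9 fell in hairpin against starved (17.4% of all genes). Fits of only the 2 groups compared called 11 lower in hairpin against starved (23.4% of the 47, against 18.7% of all genes). They called 0 higher in hairpin against fed (7.61% of all genes). Without a filter 0 rose and 2 fell in hairpin against fed (5.97% and 5.03% of all genes). Scaling by own totals left 2 higher in starved against fed (15.1% of all genes). With the GC trend removed 8 rose (25.4% of all genes) and 9 fell (24.9% of all genes) in starved against fed, and 2 rose in hairpin against fed (13.1% of all genes). MDC1 was not among these 2. The causes were not tested.

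Leaving out 1 library at a time, starved against fed gave 2 to 10 higher and 2 to 6 lower repair genes. Hairpin against starved gave 10 to 23 lower, and hairpin against fed gave 0 to 2 higher, 1 to 8 lower and 853 to 2499 genes in all. Of all genes, 15.7% to 26.9% were higher and 16.8% to 25.1% lower in starved against fed in these fits. In hairpin against starved 18.5% to 26.0% of all genes were lower. In hairpin against fed 4.0% to 11.2% were higher and 3.7% to 11.2% lower. A fit that drops a library leaves 2 in its group.

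With the replicate number as a block, 7 repair genes rose and 5 fell in starved against fed (21.9% and 21.5% of all genes). In hairpin against starved 4 rose and 20 fell (22.4% and 24.4% of all genes), and in hairpin against fed 1 rose and 6 fell (8.8% and 9.6% of all genes). The genes called in all were 4826, 5199 and 2049. Whether the numbers pair the libraries could not be told. Deviations of same-numbered libraries correlated between -0.56 and 0.62, and not every library correlated best with its own number. The highest correlation, 0.63, was between fed replicate 3 and starved replicate 2, which both leaned towards GC-rich transcripts. Such leanings enter the correlations, which therefore cannot show whether same-numbered libraries share a culture or a batch.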

Other observations

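In the other excision repair pathways, 4 of 13 tested base excision genes rose and 2 fell in starved against fed libraries (30.8% and 15.4%, against 21.5% and 21.3% of all genes). In hairpin against starved libraries 8 fell and 5 did not pass (61.5% lower, against 23.9% of all genes). OGG1, the glycosylase that removes oxidized guanine, averaged 286 ± 24.2 normalized counts in hairpin, 669.9 ± 94.1 in starved and 357 ± 18.3 in fed libraries (SD, n = 3 each). OGG1 rose in starved against fed (0.72, limma adjusted p = 0.000278) and fell in hairpin against starved libraries (-0.96, limma adjusted p = 4.29e-05). Of 15 tested nucleotide excision genes, 4 rose in starved against fed libraries (26.7%, against 21.5% of all genes), and 3 rose and 5 fell in hairpin against starved libraries (20% and 33.3%, against 22.5% and 23.9%). The Cockayne syndrome gene ERCC6 rose in the first (0.40, limma adjusted p = 0.00409) and fell in the second (-0.35, limma adjusted p = 0.00769).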
